A study of Mus musculus with 2 samples.

Results

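Glycolysis isozymes, glycogen enzymes and hypoxia-responsive genes were examined as a set of 37 genes, listed by symbol and matched to the arrays through the RefSeq accession of each probe. The 37 genes were among 20144 genes named on the arrays, and all 37 were well above background on both, against 14144 of all named genes. The set holds glucose carriers, the enzymes that convert glucose to lactate, their regulators, lactate carriers, glycogen synthase and phosphorylase, and 4 genes of the hypoxia response. The study profiled mouse P3 primary keratinocytes, the cells of the epidermis, on Agilent arrays with 1 colour and 1 array per genotype. The control had the genotype Rac3-KO and the other array the genotype Rac1Rac3-DKO, so that loss of Rac3 was shared by both and loss of Rac1 was the labelled difference. Rac1 and Rac3 are small GTPases that control the actin cytoskeleton and adhesion. The meaning of P3, the Cre line, the number of animals or cultures behind each RNA and any pooling are not given in the sources used here.

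With 1 array per genotype there is no replicate and no test, and every difference is one between these 2 RNA preparations. The arrays are called KO-labelled and DKO-labelled. Neither label could be checked with its target: the 2 Rac1 probes differed by 0.28 and -0.12 on the log2 scale (DKO-labelled minus KO-labelled), the Rac3 probe exceeded background on each array, and whether these probes lie in a deleted part is not given. Both arrays were on the same slide and in the same scan. Between 52.9% and 56.9% of 55678 probes were well above background and no spot was saturated. A level is the log2 processed signal minus that of the array's 75th percentile, which was a signal of 705 on the KO-labelled and 354 on the DKO-labelled array. A difference is the DKO-labelled minus the KO-labelled level, with the scanner software's signal error of about 0.20, and "2-fold" is used as a line of size and not of significance.

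Glycolysis breaks glucose down to pyruvate and lactate in the cytosol. Most of its steps are served by several isozymes from separate genes, of which 1 is typical of mature skeletal muscle, where fast contraction draws on glycogen through glycogen phosphorylase. Under low oxygen, hypoxia-inducible factors bind the core letters RCGTG near many genes of glucose uptake, glycolysis and survival, whereas muscle-specific genes are commonly bound by MyoD-family factors at E-boxes, spelled CANNTG. Epidermal keratinocytes take up glucose mainly through Slc2a1, also called GLUT1.

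The promoters of the muscle forms with the greatest differences are printed first, because these 3 genes had the highest differences of the set. Each is the 250 bases upstream of the RefSeq start on the gene's own strand, 5' to 3', in build GRCm38.p6, with capitals marking every CANNTG: Pgam2 at chr11:5803797-5804046 (minus strand), Eno3 at chr11:70656926-70657175 (plus strand) and Pygm at chr19:6384158-6384407 (plus strand).
Pgam2: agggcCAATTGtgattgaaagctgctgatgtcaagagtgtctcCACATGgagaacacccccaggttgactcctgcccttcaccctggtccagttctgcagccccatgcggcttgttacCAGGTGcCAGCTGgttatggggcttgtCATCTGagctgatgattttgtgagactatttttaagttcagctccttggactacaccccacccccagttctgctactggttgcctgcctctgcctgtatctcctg
Eno3: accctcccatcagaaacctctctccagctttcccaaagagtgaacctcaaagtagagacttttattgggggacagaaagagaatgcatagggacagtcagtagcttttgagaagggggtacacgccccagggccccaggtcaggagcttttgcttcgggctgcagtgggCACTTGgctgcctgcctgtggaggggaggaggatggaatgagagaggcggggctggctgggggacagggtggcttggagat
Pygm: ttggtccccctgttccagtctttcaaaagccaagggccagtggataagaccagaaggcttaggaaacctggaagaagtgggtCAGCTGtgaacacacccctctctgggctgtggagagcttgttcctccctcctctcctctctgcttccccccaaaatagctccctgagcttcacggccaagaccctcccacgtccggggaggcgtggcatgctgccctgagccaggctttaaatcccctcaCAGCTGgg
Pgam2 held 5 matches, Eno3 1 and Pygm 2, both of the latter spelling CAGCTG.

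The promoter of Slc2a1, the member with the greatest difference in the other direction, and those of the 4 hypoxia-response genes are shown with every ACGTG or GCGTG, on either strand, in capitals. They lie at chr4:119108495-119108744 (Slc2a1, plus strand), chr7:138909507-138909756 (Bnip3, minus strand), chr8:45999851-46000100 (Ankrd37, minus strand), chr4:43506776-43507025 (Car9, plus strand) and chr12:54203875-54204124 (Egln3, minus strand) of the same build.
Slc2a1: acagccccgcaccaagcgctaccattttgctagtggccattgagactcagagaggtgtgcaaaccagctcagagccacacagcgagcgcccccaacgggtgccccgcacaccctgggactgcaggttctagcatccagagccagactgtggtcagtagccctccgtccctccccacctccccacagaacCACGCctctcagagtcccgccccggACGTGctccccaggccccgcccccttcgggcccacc
Bnip3: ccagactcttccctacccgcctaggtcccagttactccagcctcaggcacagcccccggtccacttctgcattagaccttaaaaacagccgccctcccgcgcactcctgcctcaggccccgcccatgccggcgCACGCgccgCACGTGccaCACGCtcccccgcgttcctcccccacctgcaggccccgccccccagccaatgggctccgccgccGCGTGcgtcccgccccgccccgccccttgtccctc
Ankrd37: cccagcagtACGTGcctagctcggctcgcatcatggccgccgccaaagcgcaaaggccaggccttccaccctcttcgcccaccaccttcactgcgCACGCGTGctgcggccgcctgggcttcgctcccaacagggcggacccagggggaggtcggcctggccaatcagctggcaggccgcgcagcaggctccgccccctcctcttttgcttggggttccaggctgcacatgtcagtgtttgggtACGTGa
Car9: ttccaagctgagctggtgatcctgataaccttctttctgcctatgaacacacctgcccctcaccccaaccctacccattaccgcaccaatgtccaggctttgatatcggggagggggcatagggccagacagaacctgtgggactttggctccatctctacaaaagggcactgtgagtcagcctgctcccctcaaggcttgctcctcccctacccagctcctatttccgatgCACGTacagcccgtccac
Egln3: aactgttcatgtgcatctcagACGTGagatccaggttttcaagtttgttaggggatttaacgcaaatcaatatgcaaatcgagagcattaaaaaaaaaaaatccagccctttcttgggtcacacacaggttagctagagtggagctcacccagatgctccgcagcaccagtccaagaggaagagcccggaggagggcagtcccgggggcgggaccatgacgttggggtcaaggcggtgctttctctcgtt
Bnip3 held 5 matches, Ankrd37 4, Slc2a1 2, and Car9 and Egln3 1 each, on a count where CACGTG, which is an E-box as well, reads as a match on both strands. Of 32851 RefSeq windows of the same length for all genes, 38.6% held ACGTG or GCGTG and 66.2% held CANNTG, searched on both strands. Of the members' 51 windows, for 35 of the 37 genes, 38 (74.5%) held ACGTG or GCGTG and 35 (68.6%) held CANNTG, and several windows belong to 1 gene. The 2 motifs did not divide the classes. Of 7 windows for 4 muscle isozymes, 5 (71.4%) held ACGTG or GCGTG and 6 (85.7%) held CANNTG. All 4 windows of the hypoxia-response genes held both, although CANNTG was not marked there. The base composition of the windows was not compared, a match is only a run of letters, and the MEF2 consensus was found in none of the members' windows and in 0.508% of all.

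The main pattern was a split within the pathway. The muscle isozymes Pgam2, Eno3, Pygm and Pfkm were 2.69-fold to 7.25-fold higher on the DKO-labelled array. Slc2a1 and Pfkl, which serve the same steps as Slc2a4 and Pfkm in other tissues, were 5.28-fold and 4.83-fold lower. They were the extremes of 8 other isozymes at the steps of the muscle forms, of which 6 were within 2-fold and 3 lay above 0. Eno1 and Pygl, counterparts of Eno3 and Pygm, differed by only -0.05 and -0.17. Slc2a4, the muscle form of glucose uptake, was inside the 2-fold line at 0.98. Over the set, 8 of 37 genes (21.6%) were higher by 2-fold or more and 4 (10.8%) were lower by as much, against 7.71% and 6.62% of the 14144 measured genes. The 8 higher genes were Pgam2, Pygm, Eno3, Bnip3, Pdk2, Aldoa, Pdk4 and Pfkm, and the 4 lower were Slc2a1, Pfkl, Aldoc and Ankrd37. The median difference of the set was 0.46, with 24 genes above 0 and 13 below, and that of all measured genes was -0.01. Directions are relative to the 75th percentile: scaled to the spike-in RNA instead, which moves every gene by -2.05, Pgam2, Eno3 and Pygm were the only members above 0, and Pfkm, Aldoa, Pdk2, Pdk4 and Bnip3 turned to lower. Gaps between isozymes of 1 step, given below, are the same on both scales.

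**Figure D1:**
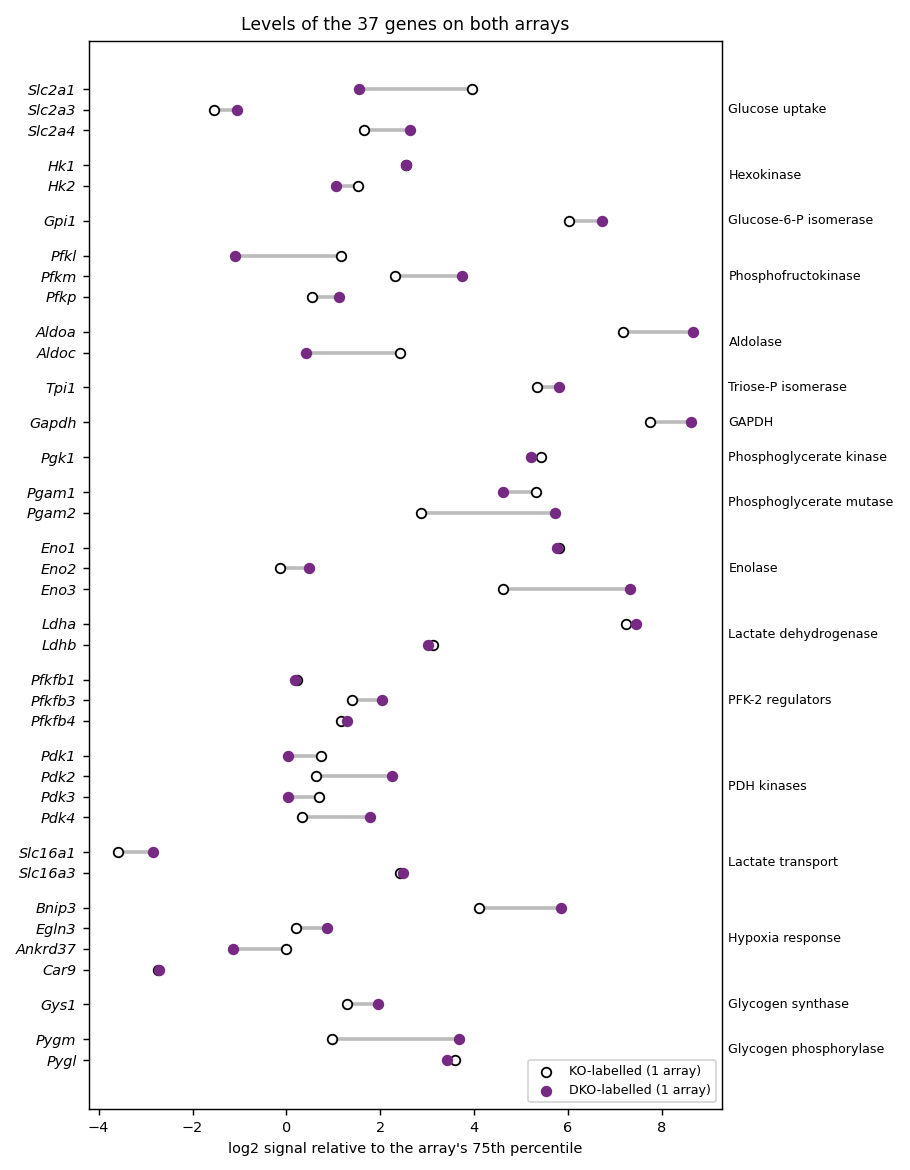
Level of each of the 37 genes on the KO-labelled and the DKO-labelled array (log2 processed signal minus the array's 75th percentile, 1 array each), ordered by pathway step. Pgam2 moves from 2.86 to 5.72 and Slc2a1 from 3.96 to 1.56, and no group has replicates.

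Markers of skeletal muscle and of keratinocytes also differed between the arrays, in opposite directions. Over all measured genes, 7.71% were higher and 6.62% lower by 2-fold or more. All 20 skeletal muscle markers were well above background on both arrays, 18 of them were higher on the DKO-labelled array by 2-fold or more, and their summed level, in multiples of the 75th percentile, went from 480 to 2570. The brightest were the troponins Tnnc2, at signals of 97854 and 259874, and Tnni2, which was 6.32-fold higher. Of 17 basal keratinocyte markers, 14 were lower by 2-fold or more, with a summed level of 888 and 330, and Krt5, the basal keratin, had signals of 219046 and 47847. Of 16 measured markers of differentiated keratinocytes, 15 were lower by 2-fold or more, and Krt10 was 22.6-fold lower. The summed level of this list, over all 18 genes with a probe, was 503 and 72.2. In bulk RNA, fewer cells of a type and less RNA per cell cannot be told apart. The part of either cell type's markers in the isozyme values was not tested.

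Glucose uptake depends on carriers of the Slc2a family. Slc2a1, the broadly expressed carrier, had a signal of 10944 on the KO-labelled and 1042 on the DKO-labelled array, or levels of 3.96 and 1.56. The difference of -2.40 ± 0.20 made it the lowest of the 37 genes, and 0.368% of measured genes lay below it. Slc2a4 (GLUT4), the insulin-responsive carrier of muscle and fat, had levels of 1.65 and 2.63, and its difference of 0.98 ± 0.20 lay just inside the 2-fold line. Its 10 repeated spots gave differences from 0.85 to 1.08, with an SD of 0.07. Slc2a3 (GLUT3), the carrier best known from neurons, was dim, with signals of 242 and 171 and a difference of 0.49 ± 0.21. Slc2a1 and Slc2a4 thus lay on opposite sides of 0, with a gap of 3.38 ± 0.29, while Slc2a4 and Slc2a3 were separated by 0.49 ± 0.29. Neither Slc2a3 nor Slc2a4 had a promoter sequence to show.

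Hexokinases trap glucose in the cell by phosphorylation. Hk1, the form found in most tissues, had a level of 2.55 on both arrays and sat closest to 0 of all members; its difference was -0.09 with the median as the scale. Hk2, the form of insulin-sensitive tissues, had levels of 1.53 and 1.05 and a difference of -0.49 ± 0.20. Neither hexokinase was 2-fold apart. Glucose 6-phosphate then passes through Gpi1, the isomerase, whose levels of 6.03 and 6.72 gave a difference of 0.70, with its 3 probes within 0.15 of each other.

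Phosphofructokinase is the committed step of glycolysis, and its 3 genes took different directions. Pfkm, the muscle subunit, had signals of 3519 and 4759 and levels of 2.32 and 3.75. Its difference of 1.43 ± 0.20 (2.69-fold) was nearly the same in the 8 repeated spots kept on both arrays, from 1.36 to 1.47. After outlier spots were left out, the probe had 10 spots on the KO-labelled array and 8 on the DKO-labelled array. On the spike-in scale the difference of Pfkm was -0.62. Pfkl, the liver subunit, had signals of 1588 and 165 and levels of 1.17 and -1.10, a difference of -2.27 ± 0.21. Pfkp, the platelet subunit, had levels of 0.55 and 1.12, a difference of 0.56, while its other probe gave 0.00. The gap between Pfkm and Pfkl, 3.70 ± 0.29 or 13.0-fold, was the widest of those computed, and that between Pfkm and Pfkp was 0.86.

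Aldolase splits the 6-carbon sugar into a pair of 3-carbon units. Aldoa, the form of muscle that is also widely expressed, had signals of 101593 and 144306 and a level 2.83-fold higher on the DKO-labelled array, a difference that became -0.55 on the spike-in scale. Aldoc, the brain form, had signals of 3756 and 476 and a difference of -1.99 ± 0.20. The aldolases thus lay on opposite sides of 0, with a gap of 3.49 ± 0.29 (11.2-fold).

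The next steps have a single main gene each, and none was 2-fold apart. Tpi1, triose phosphate isomerase, had levels of 5.34 and 5.80 and a difference of 0.46, with 0.07 at its other probe. Gapdh, the dehydrogenase of this step, had levels of 7.74 and 8.63, and its 7 probes gave differences from 0.65 to 0.91. Pgk1, the kinase that first yields ATP, had levels of 5.43 and 5.21 and a difference of -0.22. Gapdh is often used as a reference gene, and here its difference of 0.89 ± 0.20 was on the same side as the muscle isozymes.

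Phosphoglycerate mutase and enolase complete the path to phosphoenolpyruvate, and their muscle forms, Pgam2 and Eno3, differed from the other forms of the same step. Pgam2, the muscle mutase, had signals of 5115 and 18648 and levels of 2.86 and 5.72. Its difference of 2.86 ± 0.20 (7.25-fold) was the highest of the 37 genes, and 0.163% of measured genes lay above it. Pgam1, the mutase of most other tissues, had levels of 5.33 and 4.61 and a difference of -0.72, so that the mutases were 3.57 ± 0.29 apart, or 11.9-fold. Eno3, the muscle enolase, had signals of 17286 and 56576 and a difference of 2.70 ± 0.20 (6.51-fold). Eno1, the enolase of most cells, was level, with 5.81 and 5.76 and a difference of -0.05. Eno2, the neuronal enolase, had levels of -0.13 and 0.48 and a difference of 0.61. Eno3 thus lay 2.76 above Eno1 and 2.09 above Eno2 in its difference. Pgam2 and Eno3 were higher on the DKO-labelled array also in signal before any scaling.

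**Figure D2:**
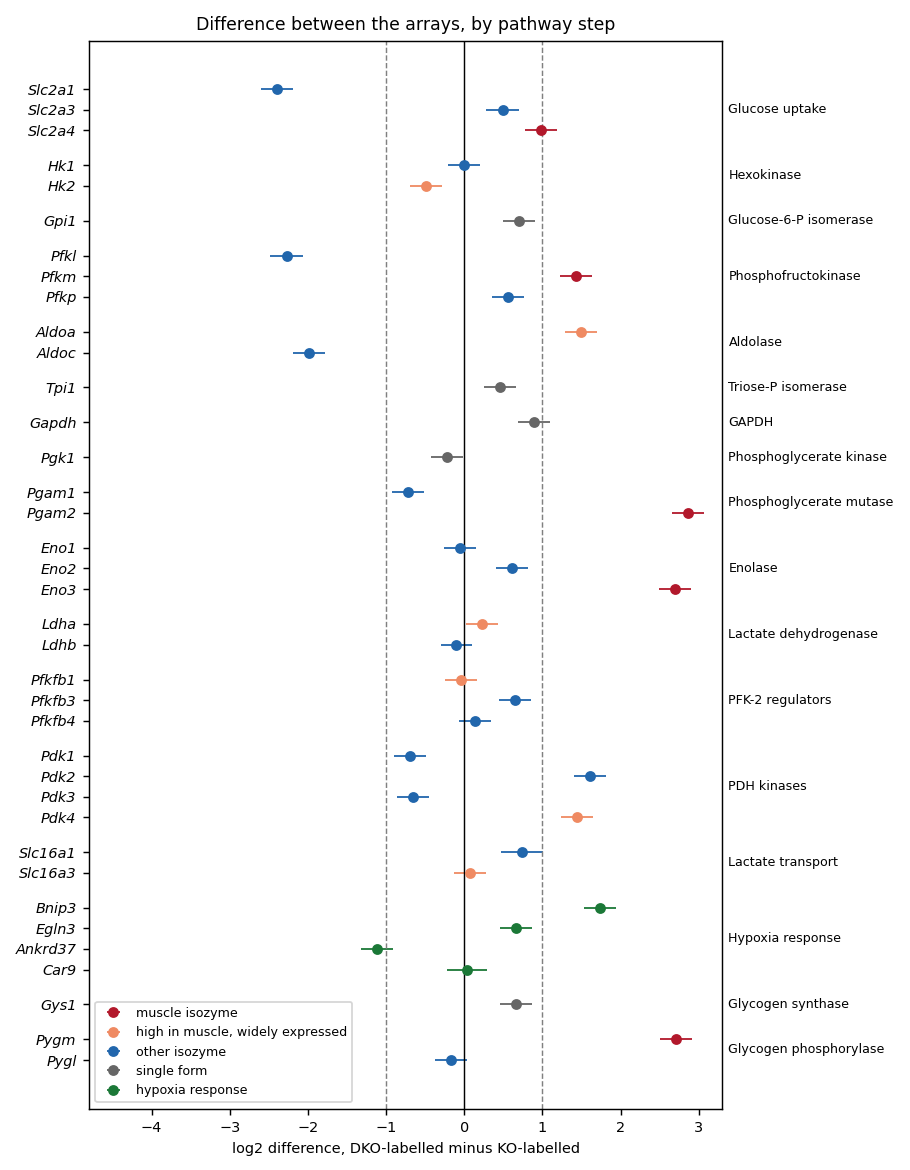
Difference between the arrays (log2, DKO-labelled minus KO-labelled) for the 37 genes by pathway step, with bars for the scanner software's signal error and dashed lines at 2-fold. Red marks muscle isozymes, of which Pgam2 is at 2.86 and Eno3 at 2.70, and blue the other isozymes, of which Slc2a1 is at -2.40; the spike-in scale moves all points by -2.05 and leaves the distances between them.

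Lactate dehydrogenase interconverts pyruvate and lactate, and its subunits were close to 0. Ldha, the subunit typical of muscle and of hypoxic cells, had levels of 7.23 and 7.46 and a difference of 0.23, with no probe of its 3 above 0.35. Ldhb, the heart subunit, had levels of 3.12 and 3.02 and a difference of -0.10. The gap of 0.33 ± 0.29 was small beside those of the steps above. Of the monocarboxylate carriers that move lactate across the membrane, Slc16a3 (MCT4), which exports it from fast muscle, had levels of 2.42 and 2.49. Slc16a1 (MCT1) was among the dimmest members, with signals of 58.6 and 49.2 and a difference of 0.74 ± 0.27.

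Enzymes that set the rate of glycolysis or of pyruvate oxidation varied among themselves. The PFKFB enzymes make or remove fructose 2,6-bisphosphate, the activator of phosphofructokinase. Pfkfb1, the form of liver and muscle, had levels of 0.23 and 0.18, and Pfkfb4 had 1.16 and 1.30. Pfkfb3, the inducible form, had levels of 1.40 and 2.05 and a difference of 0.65. A dimmer Pfkfb3 probe for another transcript variant had signals of 39.3 and 76.4 and a difference of 1.95, which made Pfkfb3 the only member whose probes lay more than 1 apart.

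Pyruvate dehydrogenase kinases hold pyruvate back from the mitochondrial citrate cycle, and their 4 genes separated into pairs. Pdk4, the kinase raised by fasting in muscle, had levels of 0.33 and 1.78 and a difference of 1.45 ± 0.20, or -0.60 on the spike-in scale. Pdk2, a broadly expressed kinase, had levels of 0.63 and 2.24 and a difference of 1.61 ± 0.20, or -0.44 on the spike-in scale. Both were higher in signal before scaling as well. Pdk1, a target of hypoxia-inducible factors, had levels of 0.73 and 0.04 and a difference of -0.70. Pdk3 had levels of 0.69 and 0.04 and a difference of -0.65. Pdk4 was 2.14 above Pdk1 and 2.10 above Pdk3 in its difference but -0.16 from Pdk2, so the division did not follow the muscle class.

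Glycogen is built by glycogen synthase and broken down by glycogen phosphorylase. Pygm, the muscle phosphorylase, had signals of 1382 and 4531 and levels of 0.97 and 3.68. Its difference was 2.70 ± 0.20, or 6.52-fold, and 0.276% of measured genes lay above it. Pygl, the liver phosphorylase, was 8458 and 3774 in signal, but 3.58 and 3.41 in level, a difference of -0.17. The phosphorylases were 2.88 ± 0.29 apart. Gys1, the synthase of muscle and most other tissues, had levels of 1.28 and 1.94 and a difference of 0.66, with 0.29 at its other probe. Among 22 measured of 27 other glycogen genes, 5 (22.7%) were higher by 2-fold or more and none lower. Of all measured genes, 7.71% were higher and 6.62% lower by as much. The median difference of these glycogen genes was 0.52. The greatest were Phkg1, the muscle catalytic subunit of phosphorylase kinase, at signals of 72.3 and 208 (5.72-fold), and Ppp1r3a, the muscle glycogen-targeting subunit of protein phosphatase 1, at 74.2 and 156 (4.19-fold).

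The 4 hypoxia-response genes did not move together. Bnip3, a mitochondrial protein of cell death and mitophagy, had signals of 12166 and 20334 and a difference of 1.73 ± 0.20 (3.32-fold). Its 3 probes ranged from 1.28 to 1.73, and on the spike-in scale it was -0.32. Egln3, a prolyl hydroxylase that marks hypoxia-inducible factors for destruction, had levels of 0.21 and 0.87 and a difference of 0.66, with 0.83 at its other probe. Ankrd37, an ankyrin-repeat protein, had signals of 699 and 162 and a difference of -1.12 ± 0.21 (2.17-fold lower). Car9, the membrane carbonic anhydrase that is a standard marker of hypoxia, was dim, with signals of 106 and 54.3 and a difference of 0.03 ± 0.26. Without spike-in scaling, Bnip3 was thus higher and Ankrd37 lower, whereas on the spike-in scale both were lower (-0.32 and -3.17). The printed promoters of both hold several ACGTG or GCGTG, and a link between these matches and the differences was not tested.

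Other targets of hypoxia-inducible factors also lay on both sides of 0, with 12 above and 18 below. Of 30 measured of 33, 2 (6.67%) were higher by 2-fold or more and 7 (23.3%) lower by as much. The shares of all measured genes were 7.71% and 6.62%, so only the lower share stood apart. The median difference of these targets was -0.30. Hmox1, heme oxygenase, had signals of 11316 and 39618 (6.96-fold higher), and Vldlr, a lipoprotein receptor, was 2.87-fold higher. Car12, another carbonic anhydrase, had signals of 9538 and 954 (5.02-fold lower), and Tfrc, the transferrin receptor, was 3.41-fold lower. None of the 11 regulators of the pathway was 2-fold apart, and their median difference was 0.08. Hif1a, the oxygen-regulated subunit, differed by -0.34 and its paralogue Epas1 by 0.53.

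**Figure D3:**
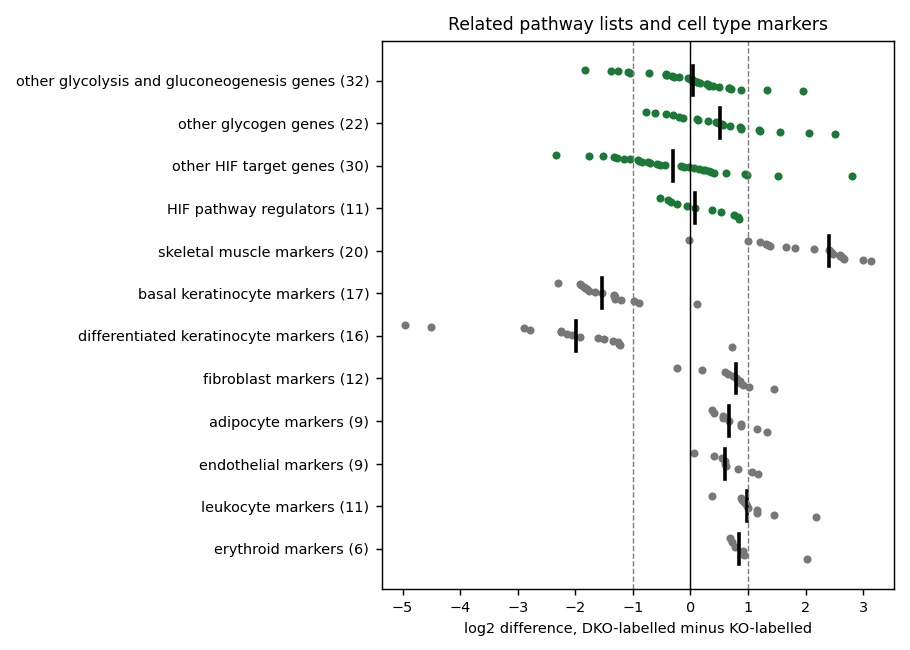
Differences (log2, DKO-labelled minus KO-labelled) of the measured genes in the further pathway lists and the cell type marker lists, 1 point per gene, with a bar at each median, the number measured in brackets and dashed lines at 2-fold. The nerve and Schwann cell markers, which lay on both sides of 0, are not drawn. The skeletal muscle markers have a median of 2.41 and the basal keratinocyte markers of -1.53; all positions are relative to the 75th percentile.

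The rest of the pathway held genes in both directions. Of 32 measured of 42 other genes of glycolysis and gluconeogenesis, 2 (6.25%) were higher by 2-fold or more and 5 (15.6%) lower by as much, against 7.71% and 6.62% of all measured genes. Their median difference was 0.05, with a range from -1.83 to 1.95. The higher genes were Fbp2, the muscle fructose bisphosphatase, at signals of 74.1 and 144 (3.86-fold), and Pcx, pyruvate carboxylase, at 2.52-fold. The 2 with the greatest differences in the other direction were Pck1, the cytosolic carboxykinase of gluconeogenesis, at signals of 2115 and 298 (3.56-fold lower), and Slc2a5, a fructose carrier, at 2.60-fold lower.

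Set side by side by class, the 5 muscle isozymes (Slc2a4, Pfkm, Pgam2, Eno3 and Pygm) had a median difference of 2.70, and 4 of them were higher by 2-fold or more. The shares of all measured genes were 7.71% higher and 6.62% lower, and each class here holds few genes. The 8 other isozymes of the same steps had a median of -0.11, with none higher by 2-fold or more and 2 lower by 2-fold or more. Pygb, another glycogen phosphorylase, is outside the set and not among these, and it differed by -0.77. In each of the 5 steps the muscle form had the highest difference of its step, and its gap to the mean of the others was 1.93 for Slc2a4, 2.28 for Pfkm, 3.57 for Pgam2, 2.43 for Eno3 and 2.88 for Pygm. These gaps compare differences within an array pair, so a factor common to all genes of an array cancels. The 6 forms that are high in muscle but widely expressed (Hk2, Aldoa, Ldha, Pfkfb1, Pdk4 and Slc16a3) had a median of 0.15, with Aldoa and Pdk4 higher by 2-fold or more. The 9 other isozymes of those steps had a median of 0.00, with Pdk2 higher and Aldoc lower. The 5 genes classed as steps with a single form had none past 2-fold. Their median of 0.66 was the value of Gys1, the synthase of muscle and most other tissues. Glycogen synthase has a further gene, Gys2, which was not well above background on either array.

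**Figure D4:**
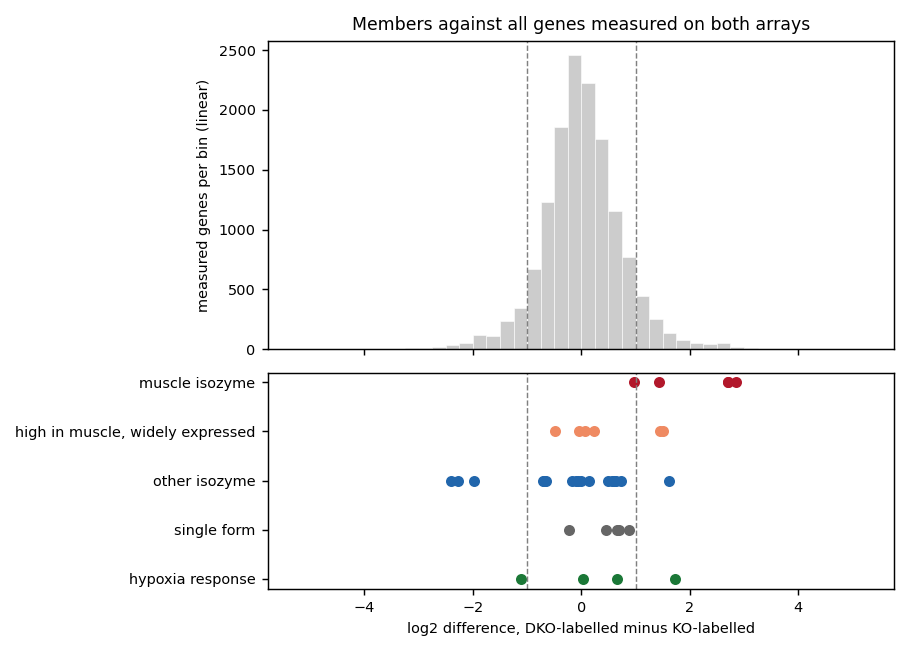
Histogram of the differences of all 14144 measured genes (log2, DKO-labelled minus KO-labelled, relative to the 75th percentile), above the 37 members by class, 1 point per gene, with dashed lines at 2-fold. The median gene is at -0.01, and the rightmost points are the muscle isozymes Pgam2, Pygm and Eno3, between 2.70 and 2.86.

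Slc2a4 and Gapdh were closest to the 2-fold line from inside, at 0.98 and 0.89, and Ankrd37 closest from outside, at -1.12. Differences between probes of 1 gene over all genes with several measured probes had a root mean square SD of 0.38, so members within that distance of the line cannot be placed on either side of it with these arrays. All 12 members past 2-fold stayed past it in the same direction under the 8 other ways of processing the values that did not use the spike-in RNA.

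The marker lists of 5 other cell types had medians from 0.60 to 0.97. Since 7.71% of all measured genes were higher by 2-fold or more, counts of 1 or 2 in lists this short say little. Fibroblast markers had a median of 0.79 (12 measured, 2 higher by 2-fold or more, Col1a2 and Col3a1 brightest, summed level 1680 and 2950). Adipocyte markers had 0.68 (9 measured, 2 higher, Fabp4 and Cfd brightest, 192 and 293), endothelial markers 0.60 (9 measured, 2 higher, Kdr and Cldn5 brightest, 22.3 and 41.6) and leukocyte markers 0.97 (11 measured, 4 higher, Csf1r and Itgam brightest, 65.4 and 149). Erythroid markers had 0.84 (6 measured, 1 higher, Hba-a2 and Hba-a1 brightest, 1720 and 3100). Summed levels cover all genes of a list with a probe, which were 10 for adipocyte and 8 for erythroid markers. Nerve and Schwann cell markers did not share this direction: the measured genes lay on both sides of 0 with none past 2-fold, their brightest, Mbp, differed by 0.16, and 2 others were well above background on the KO-labelled array alone. Adipocytes also express Slc2a4, and the part of these markers in its value was not tested.

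**Figure D5:**
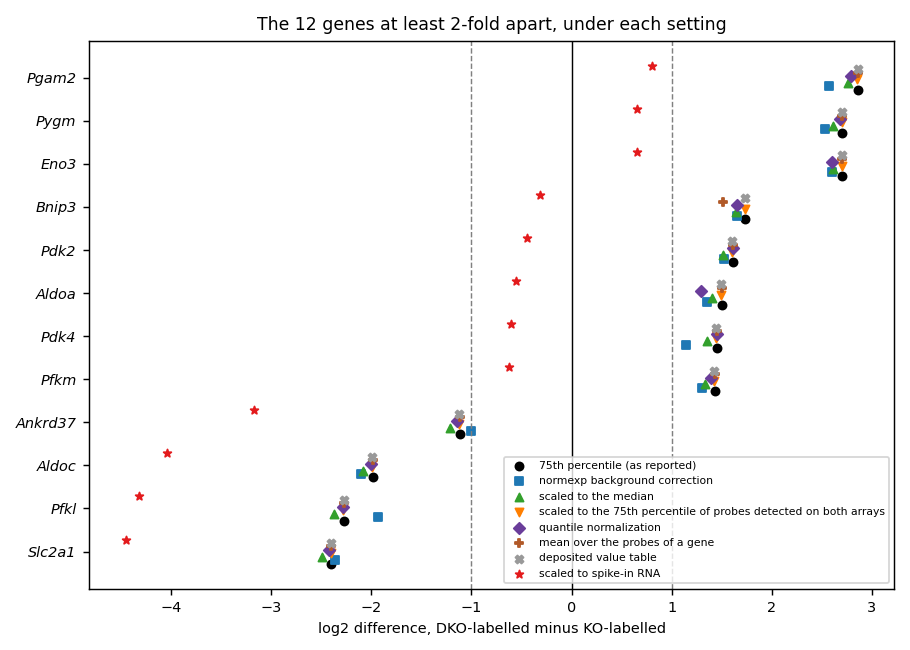
Differences (log2, DKO-labelled minus KO-labelled) of the 12 members past 2-fold under each way of processing that moved values, with dashed lines at 2-fold. Points of 1 gene lie close together except on the spike-in scale, where all move by -2.05 and only Pgam2, Eno3 and Pygm remain above 0.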

How the data were processed

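RNA was labelled with Cy3 and hybridised to 1-colour Agilent arrays, per the labels' protocols. The scanner files deposited by the authors hold intensity per spot, background-corrected by Agilent Feature Extraction, for which the submitters' processing notes give version 9.1 and the headers 10.10.1.1. A table of log2 values, also deposited by the authors, equalled log2 processed signal minus a constant per array, within 0.001 for all probes with a single spot; its column medians were -3.72 and -3.62. No file used here holds counts, and precision is limited by the number of arrays.

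Control and outlier spots were left out, spots of a probe were averaged, and the 75th percentile of log2 processed signal was subtracted. Names came from RefSeq accessions: 26580 probes named 20144 genes. Of several probes for a gene, the one brightest over both arrays stood for it, and a gene counted as measured where well above background on both arrays. All 37 members are named; of other lists, up to 2 genes each way with the largest differences past 2-fold, and the 2 brightest markers. The median of the nerve and Schwann cell list is not reported here. Members, classes and lists were chosen with earlier results of these data known. Alternatives were normexp background correction (offset 50, on the median signal, in limma 3.58.1 and R 4.3.3), median, detected-probe and quantile scaling, other filters and folds, the mean over probes, the deposited table and spike-in scaling. Other work used Python 3.11.15, numpy 2.4.6 and pandas 2.3.3. The scripts' arithmetic was tested on simulated data. Promoters came from RefSeq windows on GRCm38.p6.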

Additional observations from a re-analysis of the deposited data

How the results depend on the processing

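Scaling to the 8 spike-in probes, chosen after seeing the data, left 0 of 37 members higher by 2-fold or more and 29 lower by as much. Of all 14144 measured genes, 14 were higher and 13163 lower by as much on that scale, so the count is not particular to the members. The medians became -1.59 for all members and 0.65 for muscle isozymes. They were -2.16 for the other isozymes of the same steps and -1.70 for the hypoxia genes. On that scale 5 of the higher genes changed sign: Pfkm (-0.62), Aldoa (-0.55), Pdk2 (-0.44), Pdk4 (-0.60) and Bnip3 (-0.32). This follows from the constant shift of -2.05. In log2 signal, DKO-labelled minus KO-labelled, the median spike-in probe differed by 1.06 and the 75th percentile by -0.99. Whether either scale describes RNA per cell was not tested. A 1.5-fold line gave 16 members higher and 7 lower, and a 3-fold line 5 higher and 3 lower. The shares of all genes past these lines are not given here, so these counts cannot be set against them.

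Under the other 8 ways of processing, the 12 members past 2-fold kept their direction and call. The other filters and the deposited values left the values of the members kept all but unchanged, so they test little. Averaging probes added Pfkfb3 (1.30), and the stricter filter left 35 members, without Slc16a1 and Car9. Hk1, Pfkfb1, Slc16a3 and Car9, all within 0.07 of 0, changed sign under at least 1 of these settings, and normexp moved Car9 to 0.45. Scaling to the median changed the split over all genes from 1091 higher and 937 lower (53.8% higher) to 891 and 1152 (43.6% higher). With no replicates, biological spread is unknown, signal error covers the scanner alone, and dim genes such as Slc16a1 and Car9 lie near background. No paired analysis was possible because each genotype has 1 array.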
